A study of Mus musculus with 5 samples.

Results

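Amino acid transporters of the plasma membrane were compared between spleen and tumor through 10 genes: Slc3a2, Slc7a5, Slc7a8, Slc7a6, Slc7a7, Slc7a1, Slc1a5, Slc1a4, Slc38a1 and Slc38a2. They were chosen by gene symbol, and all 10 were among the 19726 symbols listed in each library. They and the related lists below were chosen with earlier results of these data known. The samples were labelled CD4+ T cells, lymphocytes with the CD4 co-receptor that act as helper or regulatory cells, from wild-type C57/Bl6j mice aged 7 weeks. The spleen group had 3 libraries (replicates 1, 2 and 3) and the MC38 tumor group had 2 (replicates 2 and 3), and no treatment is named for either group. MC38 is a mouse colon carcinoma line that is grown as a transplanted tumor. The comparison of tumor with spleen asks how transcript levels differ between samples from these tissues. The labels do not say whether each replicate is a different mouse, so the p-values rest on the spread between these libraries, which may be technical. In the tests of single genes this spread is mostly shared over all genes tested.

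Cells cannot make all the amino acids they need, and T cells that are activated take up far more of them than resting T cells. Slc3a2, also called CD98, is a heavy chain that carries no amino acid itself: it brings a partner from the Slc7 family, the light chain that does the transport, to the cell surface. The leucine carried by the light chain Slc7a5 is one of the signals that switch on mTORC1, a kinase complex that drives cell growth, and the ATF4 transcription factor raises many amino acid transporters when amino acids run short. Macrophages use several of the same genes, and loss of human SLC7A7 causes lysinuric protein intolerance, a disease in which macrophages are affected.

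Levels are in TPM, the length-corrected share of a gene in each library's transcripts, so levels of different genes can be compared within a library. The listed genes summed to 268987 to 359532 TPM in spleen and to 569309 and 596116 TPM in tumor. The 95th percentile of 1092 olfactory receptor genes, which T cells are not known to use, was 10.3 to 15.6 TPM in spleen and 7.60 and 10.5 TPM in tumor, and is used below as a background level. All 12 T cell identity genes fell in limma's test (defined below), in which 18.1% of all genes tested fell and 40.9% rose. The summed level of the 12 went from 996 to 1320 TPM in spleen to 249 and 318 TPM in tumor. Of 16 macrophage and monocyte genes 15 were tested and all 15 rose. The spleen mean of 10 of these 15 was below the test's minimum of 1 TPM, so they entered it through the tumor libraries alone. With no filter on low values 15 of the 16 rose, as did 5306 of all 19685 genes then tested. The 16 summed to 18.2 to 20.1 TPM in spleen and to 5160 and 5550 TPM in tumor. In spleen none of the 16 lay above the background level. None of them was at 0 in any library, and Cd163 was at 0.72 to 1.06 TPM in all 5. Dendritic cell genes summed to 11.3 to 16.4 TPM in spleen and 102 and 151 TPM in tumor. Most of the tumor sum was Itgax, at 1.88 to 2.28 TPM in spleen and 87.8 and 136 TPM in tumor. Xcr1 also rose, to 5.54 and 5.82 TPM in tumor. Zbtb46, Clec9a and Siglech were not called, and Flt3 and Cd209a lay below the minimum. Neutrophil genes summed to 18.2 to 22.9 TPM in spleen and 68.7 and 73.5 TPM in tumor. Csf3r rose to 53.1 and 57.8 TPM in tumor and S100a9 to 3.58 and 1.88 TPM, while Cxcr2 fell. Endothelial genes summed to 62.7 to 73.1 TPM in spleen and 93.6 and 102 TPM in tumor. Kdr rose to 32.7 and 33.1 TPM in tumor and Cdh5 to 1.88 and 2.13 TPM, while Pecam1 and Vwf were not called. B cell genes summed to 6.75 to 8.03 TPM in spleen and 7.02 and 8.18 TPM in tumor. Genes of CD8 T and NK cells summed to 11.3 to 15.1 TPM in spleen and 6.27 and 6.47 TPM in tumor. Fibroblast genes summed to 9.88 to 18.5 TPM in spleen and 11.3 and 14.0 TPM in tumor. The 5 epithelial genes summed to 1.51 to 2.58 TPM in all 5 libraries. The part of other cells in the results that follow was not tested, and fewer T cells cannot be told apart from less RNA of a gene per cell.

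Most of the transporters were higher in the tumor libraries, and the 4 largest rises were those of Slc7a8, Slc3a2, Slc7a7 and Slc38a2. In limma's test on log2(TPM + 1), run over the 12979 genes whose mean reached 1 TPM and called at a Benjamini-Hochberg adjusted p below 0.05, 6 of the 10 genes rose (Slc3a2, Slc7a5, Slc7a7, Slc7a8, Slc38a1 and Slc38a2). Slc1a5 and Slc7a6 fell, Slc7a1 was not called, and Slc1a4 lay below the filter and was not tested. Over all genes tested, 40.9% rose and 18.1% fell, so that 59.0% were called. Slc7a8 passed the filter only through the tumor libraries, so its call was not independent of the filter, but it also rose with no filter on low values. The median log2 change of the 9 tested transporters was 0.92, against 0.23 over all genes tested. Values of the tissues were fully separated for 9 of the 10 genes, 7 with both tumor libraries above every spleen library and 2 with both below. The same held for 70.4% of all genes tested, 46.6% above and 23.8% below.

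**Figure D1:**
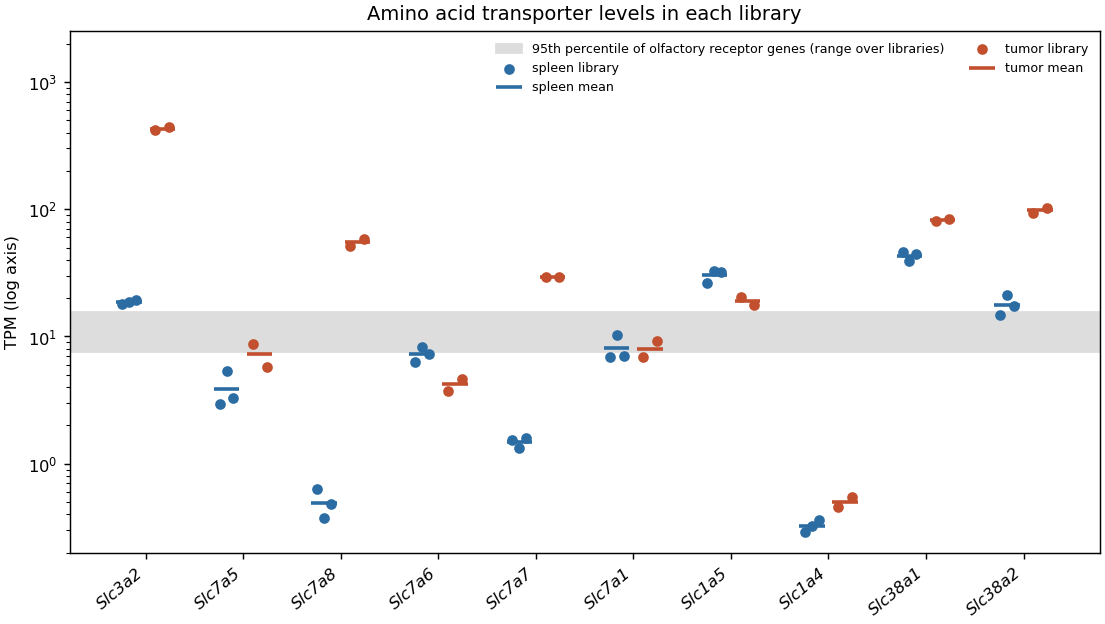
TPM of each transporter (log axis) in the 3 spleen and 2 tumor libraries, each point being a library and each line a group mean; the grey band spans the 95th percentile of olfactory receptor genes over the 5 libraries, 7.60 to 15.6 TPM. Slc3a2, Slc7a8, Slc7a7 and Slc38a2 stand far higher in tumor, while Slc7a5, Slc7a6, Slc7a1 and Slc1a4 lie within or below the band in every library.

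Because TPM are shares of a total, the balance depends on how the libraries are scaled. Under 3 other scalings 4 transporters rose and 3 fell: equal sums of the listed genes in each library (sum scaling), equal upper quartiles (quartile scaling), and equal sums without the 20 most abundant genes (trimmed sum scaling). The 4 that rose were Slc3a2, Slc7a7, Slc7a8 and Slc38a2 each time, and Slc7a1 joined Slc1a5 and Slc7a6 among the falls. Over all genes tested, 21.0% rose and 51.3% fell by sum scaling, 27.0% and 42.2% by quartile scaling, and 20.4% and 56.4% by trimmed sum scaling. With the 12 T cell identity genes held level (T cell gene scaling), all 9 tested transporters rose, as did 94.1% of all genes tested, while 1.02% of all genes fell. The median over all genes, 0.23 as deposited, moved to -0.54, -0.31, -0.60 and 2.01 under these 4 scalings.

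**Figure D2:**
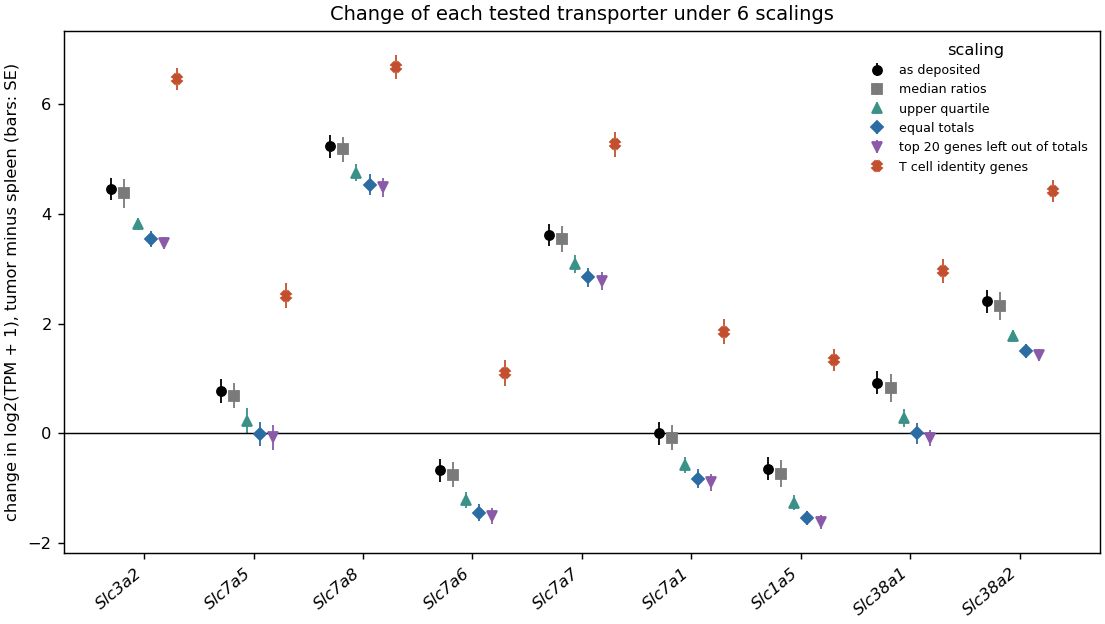
Change in log2(TPM + 1), tumor minus spleen, of the 9 tested transporters under 6 scalings (as deposited, by the median ratio of genes between libraries, and the 4 described above), with bars for the SE of limma's fit. Slc3a2, Slc7a7, Slc7a8 and Slc38a2 stay above 0 under all 6, and Slc7a5, Slc38a1, Slc7a1, Slc1a5 and Slc7a6 lie on both sides of 0.

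The heavy chain gene Slc3a2 (ENSMUSG00000010095.13, chromosome 19, 8706882 to 8723369, minus strand, GRCm38) went from the third highest of the 10 transporters in spleen to the highest in tumor. It stood at 17.8, 18.6 and 19.4 TPM in spleen replicates 1, 2 and 3, and at 416 and 441 TPM in tumor replicates 2 and 3. The replicates of each tissue lay close together and the tissues far apart. The ratio of means was 23.0, and any tumor library was 21.4 to 24.7 times any spleen library. The log2 change was 4.45 ± 0.20 (SE; limma adjusted p = 1.4e-24), and 2.57% of all tested genes rose more. Over 17 alternative settings it ranged from 3.46 to 6.46 and stayed called. Slc3a2 made up 13.5% to 14.5% of the summed TPM of the 10 transporters in the spleen libraries and 58.5% in both tumor libraries.

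Slc7a8 and Slc7a5 encode light chains that exchange neutral amino acids, Slc7a5 favouring large ones such as leucine and Slc7a8 also taking small ones. Slc7a8 (ENSMUSG00000022180.7, chromosome 14, 54722209 to 54781946, minus strand) was at 0.63, 0.38 and 0.48 TPM in spleen replicates 1, 2 and 3, far below the background level. In tumor replicates 2 and 3 it was at 51.7 and 58.2 TPM, above that level in both. With no filter the log2 change was 5.23 ± 0.21 (SE; limma adjusted p = 8.5e-13), which understates the change of a gene this low in spleen, and 1.50% of all tested genes rose more. Its change depended on the pseudocount, at 6.55 with 0.1 and 2.63 with 10 added in place of 1, and it was called with each.

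Slc7a5 (ENSMUSG00000040010.10, chromosome 8, 121881150 to 121907694, minus strand), the leucine carrier best known from activated T cells, moved much less. It was at 2.96, 5.39 and 3.29 TPM in spleen replicates 1, 2 and 3, and at 8.75 and 5.77 TPM in tumor replicates 2 and 3. The lower tumor library was just above the highest spleen library, and only tumor replicate 2 lay above its background level. The log2 change was 0.77 ± 0.22 (SE; limma adjusted p = 0.0028), and 0.31 with a pseudocount of 10, still called. It was not called without tumor replicate 2 (log2 change 0.50, adjusted p = 0.14) or by quartile scaling (0.23, adjusted p = 0.39), and was -0.01 by sum scaling and -0.07 by trimmed sum scaling.

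The light chains Slc7a7 and Slc7a6 encode a related pair that exports arginine and lysine in exchange for neutral amino acids and sodium, and they moved in opposite directions. Slc7a7 (ENSMUSG00000000958.10, chromosome 14, 54369442 to 54417780, minus strand) was at 1.53, 1.33 and 1.60 TPM in spleen and at 29.6 and 29.4 TPM in tumor. It was below the background level in each spleen library and above it in each tumor library. Its ratio of means was 19.8, and its log2 change 3.62 ± 0.20 (SE; limma adjusted p = 5.2e-21). The change was 4.22 with a pseudocount of 0.1 and 1.78 with 10, and called with both. Slc7a7 overlaps Oxa1l on the opposite strand, and Slc7a5 overlaps Gm20388 on the opposite strand. The sources used here do not give how strand was used in counting. Gm20388 is not among the listed genes, so its level is unknown. Oxa1l, a mitochondrial membrane insertase gene, was at 9.80, 15.5 and 10.2 TPM in spleen and 11.8 and 13.9 TPM in tumor, overlapping between tissues (limma adjusted p = 0.61).

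Slc7a6 (ENSMUSG00000031904.5, chromosome 8, 106168857 to 106198706, plus strand) was at 6.28, 8.33 and 7.28 TPM in spleen and at 3.73 and 4.67 TPM in tumor. The tumor libraries were below every spleen library, and all 5 values were below the background level of their library. The log2 change was -0.67 ± 0.21 (SE; limma adjusted p = 0.0051), and -0.28 with a pseudocount of 10, still called. It was not called without tumor replicate 2 (-0.54, adjusted p = 0.12) and was 1.10 by T cell gene scaling. Slc7a7 over Slc7a6, a ratio within a library that no scaling changes, was 0.244, 0.160 and 0.220 in spleen replicates 1, 2 and 3 and 7.93 and 6.28 in tumor replicates 2 and 3. In spleen both genes of the ratio lay below the background level. The log2 difference of the ratio was 5.11, with p = 0.1 in an exact two-sided permutation test. That is the smallest p that 3 against 2 libraries allow, and p was 0.1 after adjustment over the 4 ratios tested.

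The promoter stretches of the heavy chain gene and of the light chain genes Slc7a7 and Slc7a8 are shown because these 3 genes had the largest rises of the 10. They are from RefSeq (GRCm38.p6), minus strand, read 5′ to 3′ towards the start site, and leave out bases that lie in an annotated exon. Capitals mark a match to TGATGNAA, the core of the amino acid response element through which ATF4 acts.
Slc3a2 chr19:8713898-8713960: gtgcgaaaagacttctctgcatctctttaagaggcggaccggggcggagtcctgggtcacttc
Slc7a7 chr14:54417945-54418194: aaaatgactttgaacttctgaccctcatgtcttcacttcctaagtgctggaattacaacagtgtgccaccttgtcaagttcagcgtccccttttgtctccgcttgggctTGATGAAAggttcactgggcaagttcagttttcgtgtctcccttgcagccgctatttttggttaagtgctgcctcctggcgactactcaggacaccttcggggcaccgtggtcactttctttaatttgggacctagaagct
Slc7a8 chr14:54781947-54782136: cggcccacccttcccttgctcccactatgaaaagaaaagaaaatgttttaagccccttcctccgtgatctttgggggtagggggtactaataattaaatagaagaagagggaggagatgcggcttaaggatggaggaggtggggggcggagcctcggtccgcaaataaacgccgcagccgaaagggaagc

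The RefSeq table held promoter windows of 300 bases, from 250 before to 50 after a start site, for 7 of the 10 genes (13 windows): Slc7a1, Slc7a6, Slc1a4, Slc7a7, Slc7a8, Slc38a2 and Slc3a2. The start site used for Slc3a2, 8713897, lies inside the gene as given above, whose outermost 5′ end is at 8723369. No window at that end was searched. TGATGNAA, searched on both strands, was found in windows of Slc7a7 and Slc1a4, and in 3.97% of the 32851 windows of all genes. In Slc7a7 it began 141 bases and 1 base before the outermost start site, and the second of these, which runs into the exon and is not among the letters above, lies 243 bases before the next start site. In Slc1a4 the match began 4 bases before the start site. CACGTG, the E-box letters bound by MYC, was in none of the 13 windows and in 7.15% of all windows. GC content was 48.3% to 76.7% over the 13 windows, with a median of 52.7% over all windows. A match is a run of letters and says nothing on binding, and no match says only that the letters are not in these windows.

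The makeup of the light chain transcripts differed between the tissues. Over the 6 genes whose products pair with Slc3a2 (Slc7a5, Slc7a6, Slc7a7, Slc7a8, Slc7a10 and Slc7a11), Slc7a8 made up 1.5% ± 0.3 (SD, n = 3) of the summed TPM in spleen and 35.4% ± 0.5 (SD, n = 2) in tumor. Slc7a7 made up 4.6% ± 0.4 in spleen and 19.0% ± 2.0 in tumor. The share of Slc7a6 was 22.8% ± 4.4 in spleen and 2.7% ± 0.2 in tumor, and that of Slc7a5 was 12.2% ± 4.7 and 4.8% ± 1.8. Slc7a11, the cystine and glutamate exchanger, had the largest share in each spleen library (45.7% to 65.1%). In spleen it was the only light chain above the background level. In tumor it took 35.1% and 41.0%, beside 35.7% and 35.0% for Slc7a8. These shares do not depend on scaling, and no test was run on them. The tumor and spleen shares of each of the 6 genes did not overlap. For comparison, the TPM of 70.4% of all genes tested did not overlap between the tissues. Because the shares are parts of a whole, a larger share of some genes lowers those of others. Slc7a5 and Slc7a11 had lower shares in tumor although their TPM as deposited were higher there.

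**Figure D3:**
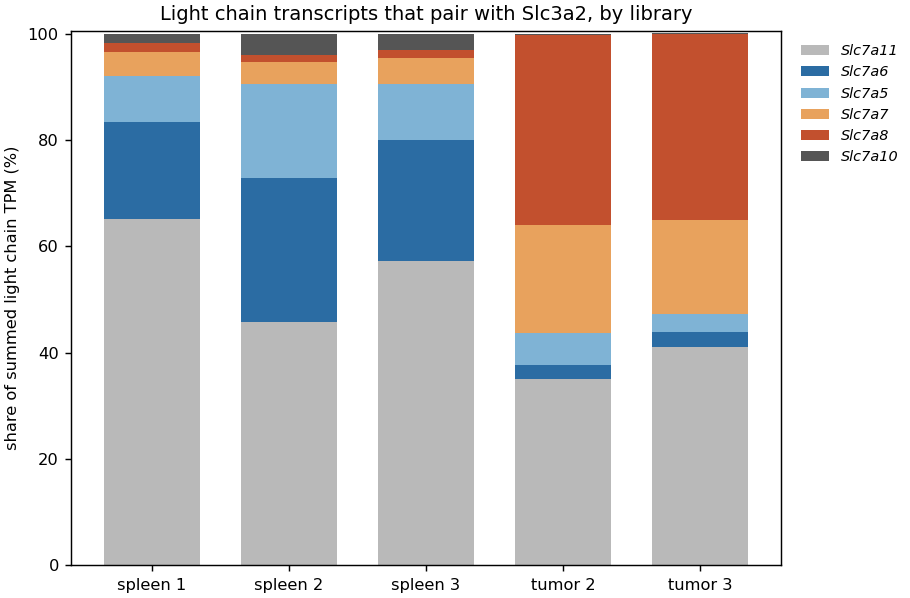
Share of each light chain gene in the summed TPM of the 6 light chain genes (y axis, percent) in each library (x axis). Slc7a6 and Slc7a5 hold 27.0% to 44.8% of the bar in the 3 spleen libraries, and Slc7a7 and Slc7a8 hold 52.7% to 56.2% in the 2 tumor libraries.

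The 6 light chains together had 1.92, 1.65 and 1.63 times the TPM of Slc3a2 in spleen replicates 1, 2 and 3, and 0.347 and 0.377 times in tumor replicates 2 and 3. Summed light chain transcripts thus exceeded the heavy chain in each spleen library and were fewer than it in each tumor library. In spleen, every light chain but Slc7a11 lay below the background level. Slc7a11 alone, at 22.3, 14.0 and 18.2 TPM in spleen replicates 1, 2 and 3, was above Slc3a2 only in replicate 1 (Slc3a2 at 17.8, 18.6 and 19.4 TPM). The sum of the 6 light chains rose from 30.6 to 34.3 TPM in spleen to 145 and 166 TPM in tumor. The log2 difference of the ratio was -2.26 (exact two-sided permutation test, p = 0.1, the smallest possible).

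Slc7a1 (ENSMUSG00000041313.14, chromosome 5, 148327410 to 148399904, minus strand), a uniporter for arginine and lysine that needs no heavy chain, was not called as deposited. It was at 6.89, 10.2 and 7.08 TPM in spleen and 6.84 and 9.18 TPM in tumor, with overlapping groups and all values below the background level. The log2 change was 0.00 ± 0.21 (SE; limma adjusted p = 1.0), but its direction moved with the scaling. It was -0.82 (adjusted p = 0.0036) by sum scaling and 1.85 (adjusted p = 6.3e-07) by T cell gene scaling.

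Slc1a5 (ENSMUSG00000001918.17, chromosome 7, 16781340 to 16798274, plus strand), a sodium-dependent exchanger that takes up glutamine, was lower in tumor. It was at 26.1, 32.8 and 32.3 TPM in spleen replicates 1, 2 and 3, and at 20.5 and 17.6 TPM in tumor replicates 2 and 3. Both tumor values were below every spleen value and above the background level. The log2 change was -0.64 ± 0.21 (SE; limma adjusted p = 0.0073). Leaving out spleen replicate 3 gave -0.60 (adjusted p = 0.067) and leaving out tumor replicate 3 gave -0.54 (adjusted p = 0.14), neither of them called. It was 1.34 (adjusted p = 4.6e-06) by T cell gene scaling. The median over all genes tested under that scaling was 2.01, above the value of Slc1a5. Per 1000 TPM of summed T cell identity genes, a sum that was itself lower in tumor, Slc1a5 was at 24.9 to 29.6 TPM in spleen and 64.4 and 70.7 TPM in tumor. Per 1000 TPM of summed macrophage genes it was at 1298 to 1805 TPM in spleen and 3.97 and 3.17 TPM in tumor. In spleen that sum came from genes that all lay below the background level. By both measures the other transporters moved in the same directions as Slc1a5.

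Its relative Slc1a4 (ENSMUSG00000020142.12, chromosome 11, 20302180 to 20332713, minus strand), which carries alanine, serine and cysteine, was the lowest of the 10 in both tissues. It was at 0.29, 0.32 and 0.36 TPM in spleen and 0.46 and 0.55 TPM in tumor, far below the background level. With no filter on low values its log2 change was 0.18 ± 0.14 (SE; limma adjusted p = 0.33). The ratio of Slc1a4 to Slc1a5 was 0.00985 to 0.0112 in spleen and 0.0225 and 0.0310 in tumor (log2 difference 1.30, exact two-sided permutation test, p = 0.1, the smallest possible), and the difference was 0.83 with 1 TPM added to each value.

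The sodium-coupled transporters Slc38a1 and Slc38a2, both carriers of glutamine and other small neutral amino acids, were higher in tumor. Slc38a2 (ENSMUSG00000022462.7, chromosome 15, 96687392 to 96699730, minus strand), which cells raise when amino acids are scarce, was at 14.7, 21.3 and 17.5 TPM in spleen and 92.8 and 103 TPM in tumor. Its ratio of means was 5.49 and its log2 change 2.41 ± 0.21 (SE; limma adjusted p = 4.1e-14), and it was called under all 17 alternatives, from 1.42 to 4.41. Slc38a1 (ENSMUSG00000023169.15, chromosome 15, 96571418 to 96642913, minus strand), its neighbour on the chromosome, was at 45.7, 39.0 and 44.7 TPM in spleen and 80.5 and 84.1 TPM in tumor. The groups did not overlap, and the log2 change was 0.92 ± 0.21 (SE; limma adjusted p = 0.00015). It was not called by quartile scaling (0.28, adjusted p = 0.13), and was 0.00 by sum scaling and -0.08 by trimmed sum scaling.

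The order of this pair changed between the tissues. Slc38a1 over Slc38a2 was 3.12, 1.83 and 2.55 in spleen replicates 1, 2 and 3, and 0.867 and 0.817 in tumor replicates 2 and 3. Slc38a1 was thus the higher of the pair in each spleen library and the lower in each tumor library (log2 difference -1.54, exact two-sided permutation test, p = 0.1, the smallest possible).

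Across the 10 genes the order of mean levels in spleen was Slc38a1, Slc1a5, Slc3a2, Slc38a2, Slc7a1, Slc7a6, Slc7a5, Slc7a7, Slc7a8 and Slc1a4. Of the neighbours in this order only Slc3a2 with Slc38a2 and Slc7a1 with Slc7a6 had overlapping ranges. In tumor the order was Slc3a2, Slc38a2, Slc38a1, Slc7a8, Slc7a7, Slc1a5, Slc7a1, Slc7a5, Slc7a6 and Slc1a4, and only Slc7a1 and Slc7a5 overlapped. Slc7a8 went from the ninth place to the fourth and Slc1a5 from the second to the sixth. With the replicates of a tissue averaged, Slc7a8 stood at the 24.3 percentile of all listed genes in spleen and the 91.2 percentile in tumor. The summed TPM of the 10 genes went from 123 to 138 in spleen to 711 and 754 in tumor.

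Of 26 other amino acid transporters of the plasma membrane 13 passed the filter, 1 of them (Slc7a2) through tumor alone and 2 through spleen alone. Of the 13, 6 rose (46.2%) and 1 fell (7.69%), beside 40.9% and 18.1% of all genes tested, with a median log2 change of -0.15. Slc7a2 and Slc1a2, which were among the rises, lay below the background level in every library. The largest rise was that of Slc6a6, the taurine transporter, at 11.0 to 18.5 TPM in spleen and 79.9 and 89.3 TPM in tumor (log2 change 2.50, limma adjusted p = 2.5e-14). Slc43a2, a heavy-chain-independent carrier of large neutral amino acids, was at 5.15 to 10.6 TPM in spleen and 28.8 and 34.3 TPM in tumor (2.00, limma adjusted p = 8.0e-11). Slc7a11 was at 14.0 to 22.3 TPM in spleen and 50.8 and 68.2 TPM in tumor (1.67, limma adjusted p = 4.4e-09). The only fall was that of Slc1a3, a glutamate transporter, whose tissues overlapped (24.8 to 63.1 and 19.9 and 35.4 TPM). Its call (log2 change -0.66, limma adjusted p = 0.023) was lost on leaving out spleen replicate 1 (-0.38, adjusted p = 0.15), spleen replicate 3 (-0.56, adjusted p = 0.092) and tumor replicate 2 (-0.26, adjusted p = 0.53), and it was 1.34 by T cell gene scaling. By sum scaling 3 of the list rose and 7 fell, by quartile scaling 4 and 4, by trimmed sum scaling 3 and 7, and by T cell gene scaling 13 and 0.

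Transporters of lysosomes, mitochondria and other internal membranes were mostly higher in tumor. Of 18 tested genes 14 rose (77.8%) and 0 fell in limma's test, beside 40.9% and 18.1% of all genes tested, with a median of 0.98. Slc15a3 and Slc25a18 passed the filter through tumor alone. Among the rises, Slc36a4, Slc25a18 and Slc25a44 lay below the background level in every library. Slc36a1, Pqlc2 and Slc25a38 lay above it in only 1 library each. Slc15a3, a proton-coupled transporter of histidine and peptides in lysosomes, was at 0.52 to 0.92 TPM in spleen and 189 and 192 TPM in tumor (log2 change 6.82, limma adjusted p = 1.5e-14 with no filter). Its relative Slc15a4 was at 7.91 to 9.83 TPM and at 35.6 and 57.7 TPM (2.28), and the mitochondrial glutamate carrier Slc25a22 at 2.82 to 4.95 TPM and at 18.3 and 24.2 TPM (2.29). By sum scaling 7 of the list rose and 3 fell, by quartile scaling 10 and 3, and by trimmed sum scaling 7 and 4. The macrophage gene sum, 5160 and 5550 TPM in the same tumor libraries, moved with these genes, and its part was not tested.

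**Figure D4:**
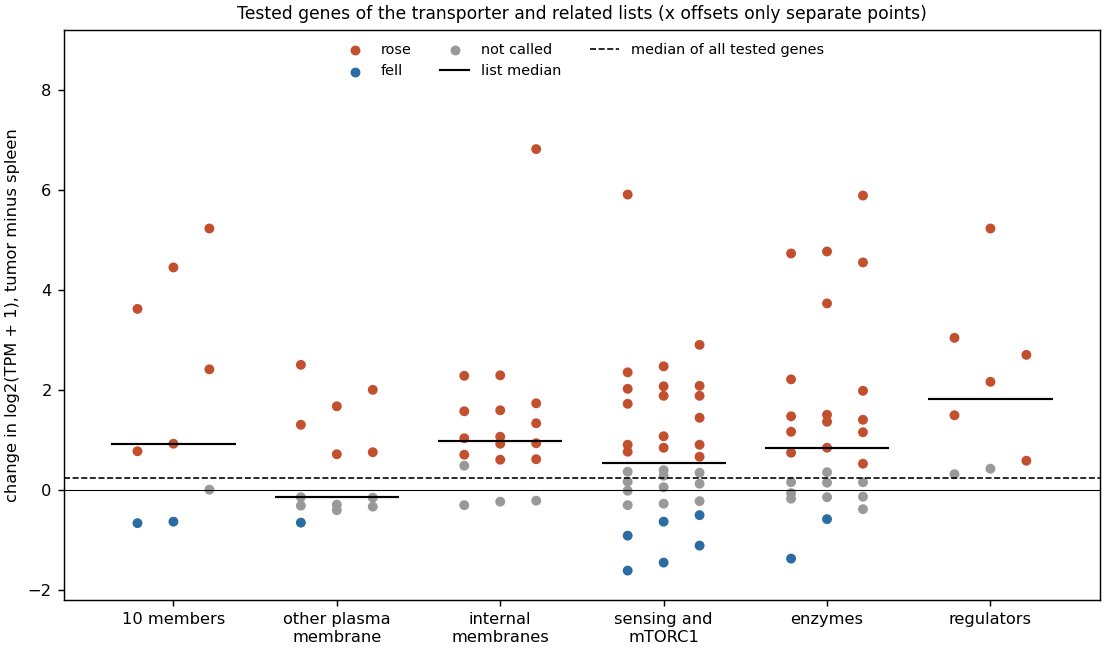
Change in log2(TPM + 1), tumor minus spleen, of each tested gene of the transporters and 5 related lists, with a solid line at each list's median and a dashed line at the median of all tested genes, 0.23. The medians run from -0.15 for other plasma membrane transporters to 1.82 for the regulators.

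Genes of amino acid sensing and mTORC1 changed in both directions: of 34 tested 17 rose (50%) and 6 fell (17.6%), with a median of 0.53. These shares lie near the 40.9% and 18.1% of all genes tested. Fnip2 and Sesn2 passed the filter through tumor alone, and their p is given with no filter. The largest rises were those of Fnip2, Fnip1 and Sesn2. Fnip2 and Fnip1 encode partners of folliculin, which acts on the Rag GTPases that bring mTORC1 to the lysosome. Fnip2 was at 0.73 to 0.98 TPM in spleen and 104 and 122 TPM in tumor (log2 change 5.91, limma adjusted p = 8.7e-14 with no filter). Fnip1 was at 7.72 to 11.3 TPM in spleen and 74.1 and 79.5 TPM in tumor (2.90). The leucine sensor Sesn2, an ATF4 target, was at 0.54 to 0.60 TPM and at 7.57 and 7.96 TPM (2.47, limma adjusted p = 2e-08 with no filter). Only the value of Sesn2 in tumor replicate 2 lay above the background level.

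Its relatives Sesn3 and Sesn1 were lower in tumor. Sesn3 was at 35.9 to 43.1 TPM in spleen and 10.8 and 13.6 TPM in tumor (log2 change -1.62, limma adjusted p = 3.1e-09). Sesn1 was at 16.7 to 24.6 TPM and at 6.42 and 6.57 TPM (-1.46). Nprl3, part of the GATOR1 complex that restrains mTORC1, was at 10.2 to 18.2 TPM and at 4.90 and 6.15 TPM (-1.12). It lay above the background level only in spleen replicate 2. These 3 falls turned positive by T cell gene scaling, at 0.35, 0.44 and 0.74. Across the list, 11 rose and 15 fell by sum scaling, 12 and 11 by quartile scaling, 11 and 17 by trimmed sum scaling, and 32 and 0 by T cell gene scaling.

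Of 27 tested enzymes that use the carried amino acids 16 rose (59.3%) and 2 fell (7.41%), beside 40.9% and 18.1% of all genes tested, with a median of 0.84. Asns, Arg2 and Nos2 passed the filter through tumor alone and 1 gene through spleen alone. Arginase 1, encoded by Arg1, breaks down arginine and is well known from macrophages. Arg1 was at 1.16 to 2.43 TPM in spleen and 160 and 185 TPM in tumor (log2 change 5.89, limma adjusted p = 2.0e-28). Got1, an aspartate aminotransferase gene, was at 4.16 to 4.68 TPM and at 140.5 and 158 TPM (4.77), and Odc1, the ornithine decarboxylase gene of polyamine synthesis, at 17.9 to 26.6 TPM and at 580 and 632 TPM (4.73). The falls were those of Bckdhb and Dbt, subunits of the complex that breaks down leucine and other branched-chain amino acids. Both genes lay below the background level in every library. Bckdhb was at 4.15 to 5.73 TPM in spleen and 1.00 and 1.59 TPM in tumor (log2 change -1.38). Dbt was at 8.28 to 8.86 TPM and at 4.69 and 6.11 TPM (-0.59, limma adjusted p = 0.013). The call of Dbt was lost on leaving out spleen replicate 3 (-0.57, adjusted p = 0.066) and tumor replicate 2 (-0.43, adjusted p = 0.23), and by T cell gene scaling the values were 0.08 for Bckdhb and 1.22 for Dbt. By sum scaling 11 of the list rose and 9 fell, by quartile scaling 13 and 8, and by trimmed sum scaling 11 and 10.

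Of 8 regulators of these transporters 6 rose (75.0%) and 0 fell in limma's test, beside 40.9% and 18.1% of all genes tested. Atf4 was at 22.4, 25.2 and 27.2 TPM in spleen replicates 1, 2 and 3, and at 214 and 208 TPM in tumor replicates 2 and 3 (log2 change 3.04, limma adjusted p = 5.1e-18). Ddit3 and Cebpb, which encode partners of ATF4 at the response element, were at 7.95 to 12.0 TPM and 1.94 to 2.90 TPM in spleen. In tumor Ddit3 was at 66.7 and 77.5 TPM (2.70) and Cebpb, also a myeloid transcription factor gene, at 123 and 139 TPM (5.23). The lysosomal regulators Tfeb and Tfe3 rose by 1.49 and 2.16 on the log2 scale. Eif2ak4, the kinase that senses uncharged tRNA, lay below the background level in every library. It was at 2.25 to 4.50 TPM in spleen and 4.72 and 5.71 TPM in tumor (0.58, limma adjusted p = 0.022). That call was lost on leaving out spleen replicate 1 (0.40, adjusted p = 0.15), spleen replicate 3 (0.55, adjusted p = 0.077) and tumor replicate 3 (0.46, adjusted p = 0.16). The change was -0.16 by sum scaling, 0.06 by quartile scaling and -0.23 by trimmed sum scaling, none called.

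Myc, whose product raises Slc7a5 and Slc1a5 in activated T cells, was at 7.76, 10.8 and 9.37 TPM in spleen and 10.7 and 15.0 TPM in tumor. The groups overlapped and Myc was not called, with a log2 change of 0.42 and a limma adjusted p of 0.087. It was called as a rise without spleen replicate 2 (0.52, adjusted p = 0.025) and by T cell gene scaling (2.32, adjusted p = 3.4e-08), and as a fall by trimmed sum scaling (-0.51, adjusted p = 0.016). Mlxip, a glucose-responsive transcription factor gene, was at 6.95 to 11.4 TPM in spleen and 10.6 and 11.6 TPM in tumor, and was not called (0.31, limma adjusted p = 0.20). It too was called as a rise without spleen replicate 2 (0.49, adjusted p = 0.021) and by T cell gene scaling (2.20, adjusted p = 2.4e-08), and as a fall by sum scaling (-0.53, adjusted p = 0.015) and trimmed sum scaling (-0.60, adjusted p = 0.0081).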

How the data were processed

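Per the labels' protocols, total RNA was depleted of ribosomal RNA and sequenced from both ends at 75 bp in strand-marking libraries. Each deposited file lists 1 TPM value per gene symbol, made by the authors. The unit is read from the values, which are not whole and sum to less than the total TPM are scaled to. The build mm10, kallisto and DESeq2 are listed, per the submitters' processing notes, with no version or role. Read depth is unknown, so no counting interval is given.

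Genes whose mean reached 1 TPM (12979 of 19726) were tested with limma 3.58.1 in R 4.3.3 on log2(TPM + 1), with 1 term for tissue, two-sided, with a trend of variance on mean and Benjamini-Hochberg adjustment over all of them (residual degrees of freedom 3, prior 44.1). The variance used for each gene thus came mainly from the spread shared over all genes tested, and less from its own libraries. Fold changes on this scale understate the change of low genes. The script was tested on simulated data. Ratios within a library were compared with exact permutation tests in SciPy 1.17.1. The members and lists were chosen with earlier results of these data known. All 10 members are named. From each related list the 3 called genes with the largest rise and the 3 with the largest fall are named, and every tested regulator. Gene positions are from GENCODE M21 (GRCm38). The labels do not tie the replicate numbers 2 and 3 of the tissues to shared mice, so they did not pair samples. Alternatives were other scalings, pseudocounts, filters and thresholds, no trend, a replicate block, and each library left out.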

Additional observations from a re-analysis of the deposited data

How the results depend on the processing

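The rises of Slc3a2, Slc7a7, Slc7a8 and Slc38a2 were called under all 17 alternatives. The other 5 tested transporters changed direction or lost or gained a call under at least 1. Slc7a5 and Slc38a1 were at -0.01 and 0.00 by sum scaling and at -0.07 and -0.08 by trimmed sum scaling. By T cell gene scaling, Slc1a5 was at 1.34, Slc7a1 at 1.85 and Slc7a6 at 1.10, and 0 transporters fell. Slc7a1, at 0.00 as deposited, was at 0.16 without spleen replicate 2 and ranged from -0.19 to 0.19 with a library left out. Leaving out each library in turn left 5 to 6 rises and 1 to 2 falls among the transporters.

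Among other plasma membrane transporters, 6 rises and 1 fall became 3 and 7 by sum scaling, 3 and 7 by trimmed sum scaling and 13 and 0 by T cell gene scaling. Falls there numbered 4 by quartile scaling, 2 with no filter, 0 with a pseudocount of 10, 0 at a threshold of 0.01 and 0 to 2 with a library left out. Among transporters of internal membranes, 14 rises and 0 falls became 7 and 3 by sum scaling and 7 and 4 by trimmed sum scaling, with 3 falls by quartile scaling. Among sensing and mTORC1 genes, 17 rises and 6 falls became 11 and 15 by sum scaling, 11 and 17 by trimmed sum scaling and 32 and 0 by T cell gene scaling, with 11 falls by quartile scaling. Among enzymes, 16 rises became 26 by T cell gene scaling, and 2 falls became 9 by sum scaling, 8 by quartile scaling, 10 by trimmed sum scaling, 0 by T cell gene scaling, 1 with a minimum of 5 TPM, 1 at a threshold of 0.01 and 1 to 2 with a library left out. Among regulators, 0 falls became 1 by sum scaling and 2 by trimmed sum scaling. With 1 TPM added to each value, the share difference was 12.4 percentage points for Slc7a7 and 30.8 for Slc7a8. The cause of these changes was not tested. Where 1 tumor library is left, its spread is taken from the spleen libraries.

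Replicate numbers 2 and 3 occur in both tissues. Deviations from the group means correlated at 0.202 for number 2 and 0.0661 for number 3, over genes of 2 pairs only, which does not show that the numbers pair the samples. With the replicate number as a block, 6 transporters rose and 2 fell, as without it, and of the other plasma membrane transporters 6 rose and 0 fell.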
